A study of Cavia porcellus with 35 samples.

Results

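The genes described here encode scaffold proteins of the excitatory postsynaptic density in the guinea pig medial prefrontal cortex (mPFC). They were chosen as a list of 9 symbols, DLG1, DLG2, DLG3, DLG4, SHANK1, SHANK2, SHANK3, HOMER1 and DLGAP1, and 8 of them were found in all 4 deposited tables, among 12100 gene symbols listed in any table. DLGAP1 was not analysed here. All 8 passed the filter on low counts in every table. The libraries came from 35 juvenile guinea pigs at postnatal day 40, 1 library per animal. F1 animals were born to mothers given courses of betamethasone, a synthetic glucocorticoid (sGC; labelled Beta), or saline (control) in late gestation. F2 and F3 animals descended from them through males mated with non-experimental females, and no strain or allele is named in the labels. F1, F2 and F3 females comprised 4 control and 4 sGC animals each, and F1 males comprised 5 control and 6 sGC animals. Females of the same group came from separate litters. Each library was prepared from punches of the cingulate and infralimbic areas, and the animals were chosen for available RNA of sufficient quality.

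At an excitatory synapse, glutamate receptors are held opposite the release site by a layered protein mesh. The DLG proteins are membrane-associated guanylate kinases (MAGUKs) that bind the tails of NMDA receptors and of AMPA receptor auxiliary subunits: DLG4 is PSD-95, DLG2 is PSD-93, DLG3 is SAP102 and DLG1 is SAP97. DLGAP proteins link this upper layer to SHANK1, SHANK2 and SHANK3, large proteins of the deeper layer that connect it to actin, and HOMER1 joins SHANK proteins to group I metabotropic glutamate receptors. SHANK3 is also the main SHANK gene of striatal spiny neurons, and a short form of HOMER1 is induced by neuronal activity.

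Library totals ranged from 12819964 to 31763585 reads assigned to genes. All male libraries, at 25697953 reads or more, were deeper than all female ones, at 19551079 or fewer. The deposited sample names also follow different schemes in males and females, so depth and sample series coincide with sex. Library totals did not differ detectably between sGC and control animals of any table (two-sided exact permutation tests, p = 0.943, 0.429, 0.686 and 0.368 in F1, F2 and F3 females and F1 males). Each scaffold gene had at least 1152 reads in every animal, and counting error was not compared with the spread between animals. Levels are given as CPM (reads scaled to a common library size over the genes of the table), and fold changes come from edgeR's quasi-likelihood test after TMM scaling, with the FDR adjusted over all genes tested in a table. A gene was called at an FDR under 0.05. In F1 females, TMM scaling raised log2 fold changes relative to plain CPM: the median over all genes was -0.03 with it and -0.11 with library totals alone, and genes called higher went from 1038 of 1864 to 609 of 2322 (803 of 1891 with upper-quartile scaling). The dissection label and the extraction note of the samples name different regions, prefrontal cortex and paraventricular nucleus. The marker genes of the paraventricular nucleus that were listed summed to between 6.37 and 19.2 CPM in every animal, and those of excitatory cortical neurons to between 1836 and 6262 CPM. In bulk tissue, fewer cells of a type and less RNA per cell cannot be told apart.

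**Figure D1:**
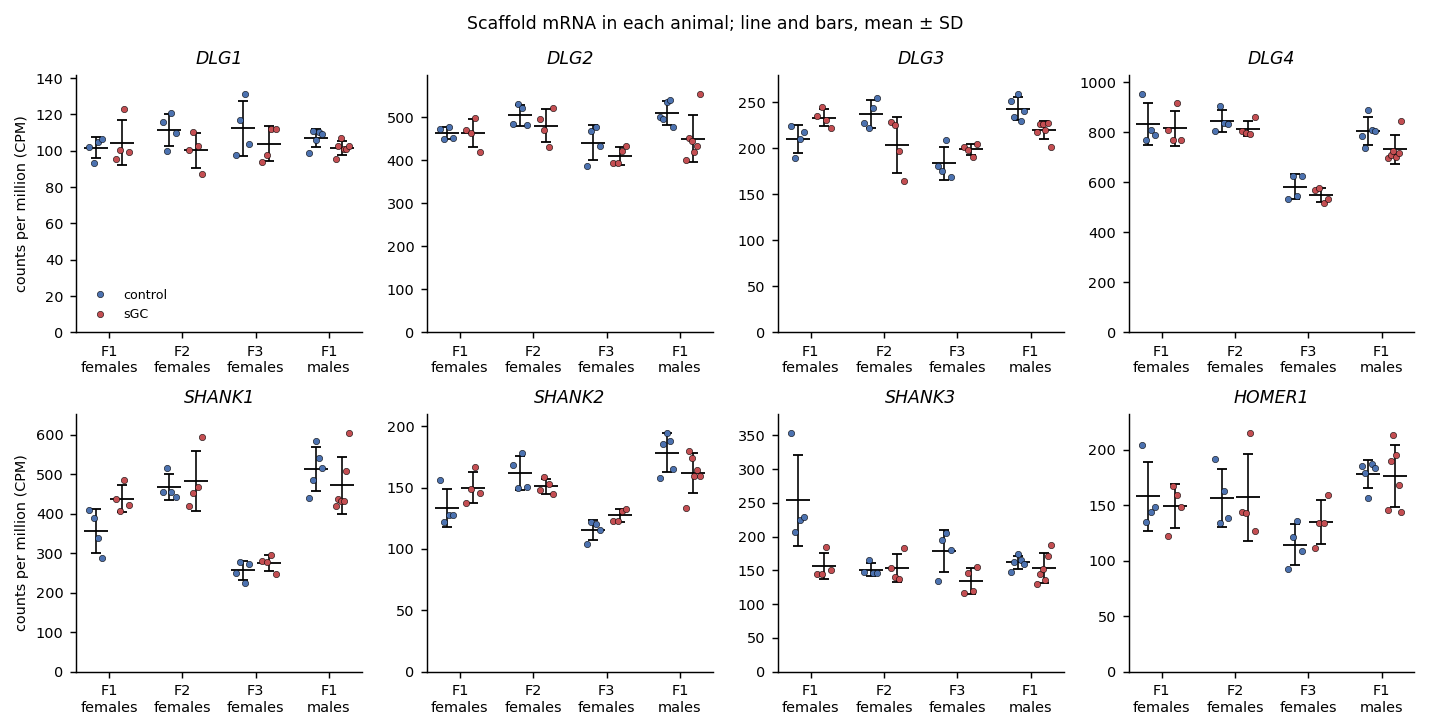
CPM of each scaffold gene (vertical axes, from 0) in every animal of the 8 groups (horizontal axes), control in blue and sGC in red, with the mean and SD as black lines. SHANK3 in F1 females shows the widest separation, with 144 to 185 CPM in sGC and 207 to 354 CPM in control animals, and most other sGC and control ranges overlap.

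In F1 females, SHANK3 mRNA was lower and SHANK1 and DLG3 mRNA were higher in sGC than in control animals. These 3 of 8 scaffold genes passed an FDR of 0.05 (edgeR quasi-likelihood test), beside 16.5% of all genes tested. The 2 up-regulated members stand beside 9.21% of genes called higher, and the 1 down-regulated member beside 7.33% called lower. The median log2 fold change of the members was 0.10, against -0.03 over all genes. SHANK3 was also the 1 member whose sGC and control values did not overlap, a separation seen in 25.7% of all genes.

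Among the MAGUKs of F1 females, DLG3, a form prominent early in synapse development, was at 224, 189, 209.7 and 217 CPM in control animals 1 to 4 and at 236, 245, 231 and 222 CPM in sGC animals 1 to 4. Of these, 3 sGC animals lay above all controls, and the fourth lay within their range. The log2 fold change was 0.23 (SE 0.07, FDR = 0.0449 with edgeR). DLG4, the most studied postsynaptic scaffold, was at 832 ± 83.8 CPM (SD, n = 4) in control and 816 ± 70.4 CPM in sGC animals. The ranges of DLG4 overlapped, and its interval of the log2 fold change ran from -0.16 to 0.26. DLG1 was at 102 ± 5.78 and 104 ± 12.4 CPM and DLG2 at 463 ± 13.7 and 462.2 ± 32.8 CPM, and neither passed the test. The fitted log2 fold changes of DLG2 (0.08) and DLG4 (0.05) turned to -0.0020 and -0.03 with library totals alone.

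SHANK3 in F1 females was at 354, 207, 225 and 229 CPM in control animals 1 to 4. The sGC animals had 144, 145, 185 and 150.3 CPM. All 4 sGC animals were below all 4 controls, with control animal 1 far above the rest. The log2 fold change was -0.62 (SE 0.18, 95% interval -1.02 to -0.22, FDR = 0.0432 with edgeR). Without control animal 1, it was -0.38 (FDR = 0.0314), a smaller difference with a smaller spread.

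SHANK1, whose product is found mainly in the brain, moved the other way. Control animals had 409, 390.2, 337 and 287 CPM and sGC animals 438, 408, 487 and 421 CPM. The sGC animal at 408 CPM fell just below the highest control and the other 3 sGC animals lay above all controls, so that the groups met only at their edges. The log2 fold change of SHANK1 was 0.38 (SE 0.11, FDR = 0.0499 with edgeR). SHANK2 was at 133 ± 15.4 CPM (SD, n = 4) in control and 150 ± 12.5 CPM in sGC animals, with a log2 fold change of 0.25 that did not pass (FDR = 0.104). HOMER1 was at 158 ± 31.5 and 149 ± 19.6 CPM, with a log2 fold change of -0.0041 and an interval from -0.34 to 0.33.

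The 3 calls in F1 females lay close to the threshold. With 1 animal left out in turn, SHANK3 passed in 3 of 8 fits, those without control animal 1, control animal 2 or sGC animal 3, with an FDR from 0.0314 to 0.108 over all 8. DLG3 and SHANK1 each passed only without control animal 1, with FDRs of 0.0210 to 0.110 and 0.0205 to 0.122. No member passed without control animal 3 or 4, or without sGC animal 1, 2 or 4, while 4 passed without control animal 1, SHANK2 being added. All 3 directions were the same in these fits. Both higher calls were also lost under other scalings, in which SHANK3 passed: with upper-quartile factors DLG3 was at 0.20 (FDR = 0.0649) and SHANK1 at 0.35 (FDR = 0.0669), and with library totals alone they were at 0.15 (FDR = 0.109) and 0.30 (FDR = 0.0812).

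**Figure D2:**
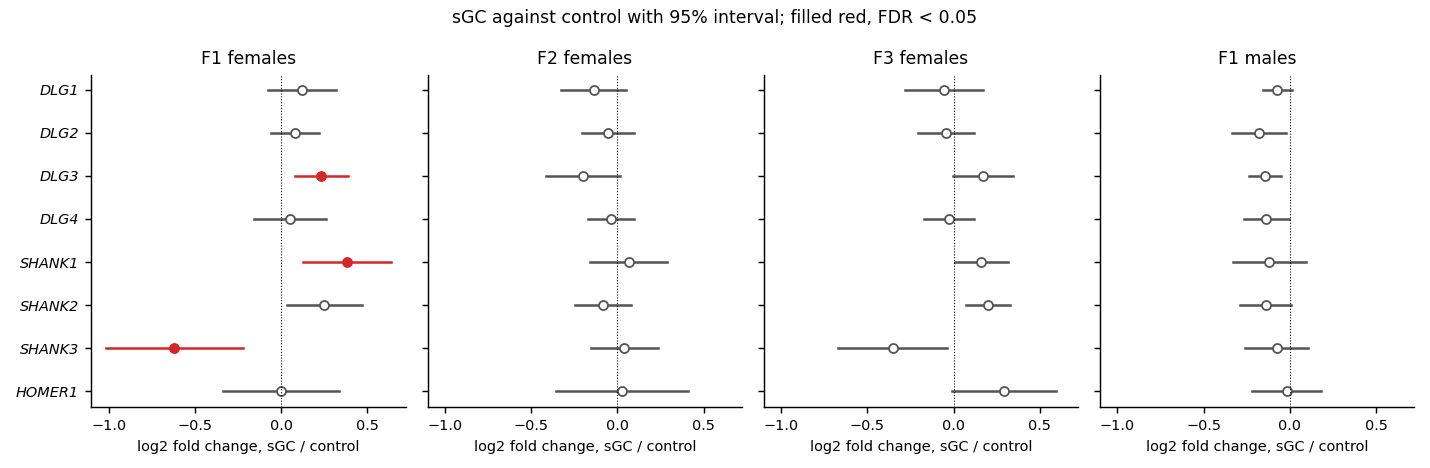
Log2 fold change of sGC over control (horizontal axes, TMM scale) for each scaffold gene in the 4 tables, with its 95% interval, filled red where the FDR was under 0.05. Calls appear only in F1 females, where SHANK3 is at -0.62, SHANK1 at 0.38 and DLG3 at 0.23, and in F1 males all 8 points lie below 0.

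Markers of other cell types moved with SHANK3 in F1 females. The list of striatal medium spiny neuron genes, of which 7 of 8 were present, summed to 2708, 611, 950.3 and 2599 CPM in control animals 1 to 4. In sGC animals the sum was 281, 242, 313 and 605 CPM, below every control. Of the 7 genes, 4 were called lower and 0 higher, and every group mean was above 0: PPP1R1B, which encodes the phosphoprotein DARPP-32, averaged 799 CPM in control and 154 CPM in sGC animals, and DRD2, the dopamine D2 receptor, 96.4 and 7.24 CPM. Control animal 2 and sGC animal 4 had nearly the same marker sum, 611 and 605 CPM, and their SHANK3 levels were 207 and 150.3 CPM. The same 2 animals were far apart in other sums, at 16454 and 5952 CPM for oligodendrocyte markers and 1992 and 6262 CPM for excitatory cortical neuron markers. With control animals 1 and 4, those of the highest marker sums, both left out, the log2 fold change of SHANK3 was -0.35 (FDR = 0.0768), while DLG3, SHANK1 and SHANK2 passed with 0.35, 0.39 and 0.38 (FDR = 0.0256, 0.0400 and 0.0334). The part of these markers in the SHANK3 difference was not tested.

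Other lists moved in F1 females too. The neuron list summed to 5337 to 6497 CPM in control and 6989 to 9414 CPM in sGC animals, with 4 of 7 tested genes called higher and 0 lower. The excitatory cortical neuron list summed to 1836 to 3155 and 3015 to 6262 CPM, with 0 of 7 called. Astrocyte markers were lower in all sGC animals, at 6101 to 6733 CPM against 6836 to 7870 CPM (3 of 8 genes called lower), as were microglial markers, at 170.1 to 192 CPM against 241 to 295 CPM (4 of 5 tested genes called lower). Sums of interneuron (2 of 8 called lower), endothelial and pericyte (1 of 7 called lower), oligodendrocyte (0 of 6), oligodendrocyte precursor (0 of 6), paraventricular nucleus (0 of 4) and choroid plexus (0 of 2) markers overlapped between the groups. Their part in the scaffold differences was not tested.

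**Figure D3:**
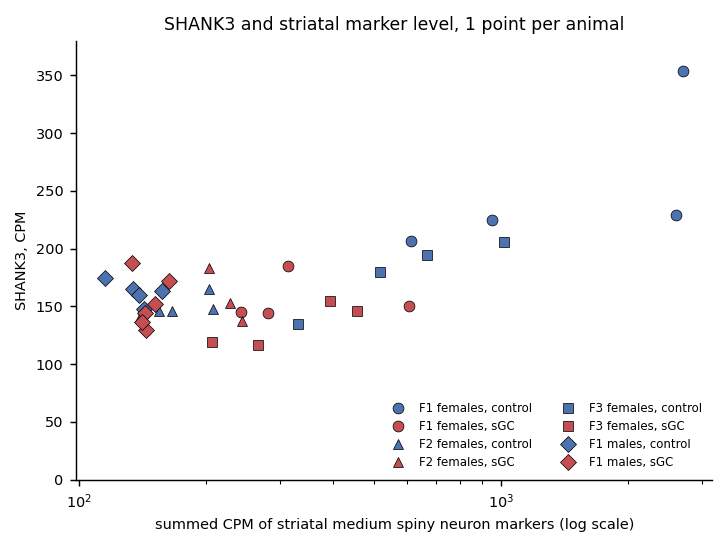
SHANK3 CPM (vertical axis) against the summed CPM of the striatal medium spiny neuron markers (horizontal axis, log scale), 1 point per animal, control in blue and sGC in red, with a symbol for each table. The F1 and F3 female controls reach the highest values on both axes, and F2 females and F1 males lie together at marker sums of 115 to 244 CPM. The sums cover 6 of the 8 listed markers in F2 females and 7 in each other table.

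In F2 females, no scaffold gene passed the test between sGC and control animals. None of the 8 passed an FDR of 0.05 in edgeR's quasi-likelihood test, beside 0.278% of all genes, and none had an unadjusted p under 0.05, beside 16.1% of all genes. DESeq2 and edgeR's likelihood ratio test called none of the 8 either. For no member did the groups separate, against 7.83% of all genes. The median log2 fold change was -0.05 for the members and 0.01 over all genes.

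DLG3 in F2 females was at 228, 222, 244 and 255 CPM in control and at 228, 226, 197 and 164 CPM in sGC animals. Only sGC animals 3 and 4 lay below all controls, and the log2 fold change was -0.20 (95% interval -0.42 to 0.02, FDR = 0.346). SHANK3 was at 148, 165, 146 and 146 CPM in control and 153, 141, 137 and 183 CPM in sGC animals. These ranges overlapped fully, and the interval of its log2 fold change, -0.15 to 0.23, did not reach the value fitted in F1 females. The other 6 members had log2 fold changes between -0.14 (DLG1) and 0.07 (SHANK1), with the widest interval, -0.36 to 0.41, for HOMER1. The striatal marker sum was 155 to 208 CPM in control and 139.7 to 244 CPM in sGC animals, with 1 of 5 tested genes called higher. Oligodendrocyte precursor markers summed to 603 to 716 CPM in control and 731 to 975 CPM in sGC animals, without overlap, and 0 of 6 were called.

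In F3 females, no scaffold gene passed the FDR threshold, and SHANK2 was the nearest. The members called were 0 of 8 in edgeR's quasi-likelihood test and in its likelihood ratio test, beside 1.34% of all genes in the former. DESeq2 called 1 of them, SHANK2. An unadjusted p under 0.05 was reached by 3 members, SHANK1, SHANK2 and SHANK3, beside 17.3% of all genes. The median log2 fold change was 0.07 for the members and -0.01 over all genes.

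SHANK2, which links the deeper layer of the postsynaptic density to actin regulators, was at 104, 122, 120.5 and 115 CPM in the F3 control animals and at 123, 123, 131 and 132 CPM in the sGC animals. Every sGC animal was above every control, the nearest pair both being at about 122 to 123 CPM, as in 11.1% of all genes in either direction. The log2 fold change was 0.20 (SE 0.06, FDR = 0.115 with edgeR and 0.0436 with DESeq2). SHANK3 was at 135, 195, 206 and 180.0 CPM in control and 116, 146, 119 and 155 CPM in sGC animals. Only control animal 1 lay within the sGC range, the other 3 controls being above all sGC animals. The log2 fold change of SHANK3 was -0.35 (95% interval -0.67 to -0.04, FDR = 0.238). SHANK1 was at 256 ± 23.8 CPM (SD, n = 4) in control and 275 ± 20.0 CPM in sGC animals, with a log2 fold change of 0.16 (FDR = 0.274).

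Among the other members in F3 females, HOMER1 was at 92.4, 121, 136 and 109 CPM in control and 111, 134, 134 and 159.6 CPM in sGC animals. Its ranges overlapped, with 1 sGC animal above all controls, and the log2 fold change was 0.29 (95% interval -0.01 to 0.59, FDR = 0.305). DLG3 had a log2 fold change of 0.17 (FDR = 0.305), and its highest control, at 209 CPM, was above every sGC animal. DLG1, DLG2 and DLG4 had log2 fold changes of -0.06, -0.04 and -0.03, each smaller than its SE. The striatal marker sum was 330, 668, 1015 and 518 CPM in control and 265, 455, 207 and 394 CPM in sGC animals, overlapping, with 0 of 7 genes called. The neuron list summed to 4768 to 6388 CPM in control and 7492 to 8056 CPM in sGC animals (3 of 7 called higher), and the excitatory cortical neuron list to 2032 to 2143 and 2401 to 2742 CPM (0 of 6 called). The part of these markers in the values of the 3 SHANK genes was not tested.

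In F1 males, all 8 scaffold genes had negative log2 fold changes, and none passed the FDR threshold. Several members varied together between animals of a group, as described below, so the 8 directions are not independent. The members called were 0 of 8, beside 9.22% of all genes, and an unadjusted p under 0.05 was reached by 3 members, DLG2, DLG3 and DLG4, beside 25.2% of all genes. DESeq2 and the likelihood ratio test each called 1 of the 8, DLG3. The median log2 fold change was -0.13 for the members and -7.26e-05 over all genes, and the values ran from -0.18 (DLG2) to -0.02 (HOMER1). The value of HOMER1 ran from -0.078 to 0.031 when 1 animal was left out in turn, while the other 7 stayed negative.

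DLG3 in F1 males was at 251, 234, 259, 229 and 240.3 CPM in control animals 1 to 5. The 6 sGC animals had 201 CPM at the lowest, a median of 223 CPM and 227 CPM at the highest. Every sGC animal was below every control, as in 6.36% of all genes in either direction, the nearest animals being at 227 and 229 CPM. The log2 fold change was -0.14 (SE 0.04, FDR = 0.0556 with edgeR, 0.0179 with DESeq2). It passed without control animal 4 (FDR = 0.0444) and in none of the other 10 fits that left out 1 animal.

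The values of DLG2 and DLG4 in F1 males depended on 1 animal. DLG2 was at 499, 497, 536, 539 and 476 CPM in control animals, and the sGC animals had 401 CPM at the lowest, a median of 438 CPM and 554 CPM at the highest. DLG4 was at 784, 737, 889, 810.2 and 806 CPM in control animals, and at 696, 713 and 846 CPM at the lowest, median and highest of the sGC animals. In both genes, 5 of 6 sGC animals lay below all controls, and the highest sGC value belonged to sGC animal 6. Over all animals, the log2 fold changes were -0.18 (SE 0.07, FDR = 0.142) and -0.14 (SE 0.06, FDR = 0.178). Without sGC animal 6 they were -0.25 (FDR = 0.00414) and -0.18 (FDR = 0.0222), and these 2 members passed. The same animal also had the highest astrocyte marker sum, 8542 CPM against 5952 to 6499 CPM in the other 5 sGC males, and the highest endothelial and pericyte sum, 736 CPM against 503 to 565 CPM, whose part in its values was not tested.

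SHANK1, SHANK2 and SHANK3 in F1 males had log2 fold changes of -0.12, -0.14 and -0.08, with FDRs of 0.5002, 0.229 and 0.634. SHANK3 was at 148, 163, 175, 165 and 159.9 CPM in control animals and at 129, 148 and 188 CPM at the lowest, median and highest of the sGC animals, so that the groups overlapped on both sides. The interval of its log2 fold change was -0.26 to 0.11. HOMER1 was at 178 ± 12.7 CPM (SD, n = 5) in control and 176 ± 27.9 CPM (SD, n = 6) in sGC animals. Oligodendrocyte markers were higher in every sGC male, at 7626 to 12554 CPM against 3491 to 6606 CPM, and 6 of 6 tested genes were called higher. Oligodendrocyte precursor markers were also higher in every sGC male, at 566 to 685 CPM against 422 to 505 CPM (4 of 6 called), and the striatal sum was 115 to 164 CPM in all 11 males. In the neuronal lists, 5 of 6 sGC males lay below every control and sGC animal 6 lay within the control range. Excitatory cortical neuron markers summed to 3813 to 4621 CPM in control males, to 3366 to 3775 CPM in sGC animals 1 to 5 and to 3826 CPM in sGC animal 6 (0 of 7 called), and interneuron markers to 668 to 827 CPM, 620 to 654 CPM and 755 CPM (2 of 8 called lower). The general neuron list overlapped, with 1 of 7 tested genes called lower, as did the astrocyte list, with 1 of 7 called higher. The part of these markers in the scaffold values was not tested.

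The response to sGC differed between F1 males and F1 females for 4 of the 8 scaffold genes, tested as the difference between the log2 fold changes of both tables, which share no animals. These 4 stand beside 31.7% of the 11274 genes tested. Depth and sample series coincide with sex in this comparison, and their part was not tested. Whether F1 males and F1 females shared litters is not given in the sources used here. DLG3 differed by -0.38 (SE 0.08, FDR = 0.00154), being 0.23 in females and -0.14 in males. SHANK1 differed by -0.51 (SE 0.16, FDR = 0.0225) and SHANK2 by -0.40 (SE 0.12, FDR = 0.0204), also lower in males, and SHANK3 differed by 0.54 (SE 0.19, FDR = 0.0416), the opposite way. The 3 lower members stand beside 15.6% of genes called lower, and the 1 higher member beside 16% called higher, a split that was 1809 higher of 3569 over all genes and 2591 of 3714 with library totals alone. The medians were -0.23 over the members and 0.01 over all genes.

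DLG3 passed in all 19 fits that left out 1 animal of these tables, with an FDR from 0.000399 to 0.00426, and SHANK2 likewise, with 0.00228 to 0.0496. SHANK2 missed the threshold with library totals alone (-0.31, FDR = 0.0615), where DLG3 and SHANK1 passed. SHANK1 passed in 18 of 19, and missed without female control 4 (log2 difference -0.42, FDR = 0.0502). SHANK3 passed in 8 of 19. It fell to 0.32 (FDR = 0.0933) without female control 1, and the other 10 fits in which it missed, those without male control 1, 2, 4 or 5, male sGC 3, 5 or 6, or female sGC 1, 2 or 4, had an FDR from 0.0521 to 0.0790. With female controls 1 and 4 both left out, SHANK3 differed by 0.28 (FDR = 0.1805), and the other 3 passed.

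Between F2 and F1 females, 1 of 8 members responded differently, beside 13.8% of all genes. Over all genes, 754 of 1536 calls were higher, against 1061 of 1551 with library totals alone. DLG3 differed by -0.44 (SE 0.13, FDR = 0.0339), from 0.23 in F1 to -0.20 in F2. It passed in 10 of 16 fits with 1 animal left out, and missed without F2 control 3 or 4, F1 control 2 or 3, or F1 sGC 1 or 2 (FDR from 0.0543 to 0.0669). SHANK3 had the largest difference, 0.66 (SE 0.21, FDR = 0.050028), and lay just outside the threshold. It passed without F1 control 1 (0.43, FDR = 0.0448), F1 control 2 (0.73, FDR = 0.0377) or F1 sGC 3 (0.74, FDR = 0.0351).

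Between F3 and F1 females, 0 of 8 members differed in their response, beside 0.0981% of all genes, and 0 of 8 had an unadjusted p under 0.05, beside 15.8%. DESeq2 and the likelihood ratio test called none. The log2 differences ran from -0.24 (SHANK1) to 0.28 (HOMER1), and that of SHANK3 was 0.25 with a 95% interval from -0.26 to 0.76. Between F3 and F2 females, 0 of 8 were called, beside 0.018% of all genes, and 3 had an unadjusted p under 0.05, beside 11.5%. These were DLG3 (0.37), SHANK2 (0.28) and SHANK3 (-0.39), with FDRs of 0.344, 0.316 and 0.416, and again neither other test called any. The comparisons that include F1 females share those animals.

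The balance among the SHANK genes was also described without scaling factors, as the share of each gene in the summed reads of SHANK1, SHANK2 and SHANK3 within a library. These shares were added after the values had been seen, and they depend on transcript length as well as on mRNA number. Because they add up to a fixed whole, a lower share of a gene raises those of the others, and they do not show which gene changed. SHANK3 made up 38.5%, 28.8%, 32.6% and 35.6% of the SHANK reads in F1 control animals 1 to 4 and 20.0%, 20.7%, 22.1% and 20.9% in the sGC animals. The sGC shares lay together and below every control (33.9 ± 4.17% against 20.9 ± 0.846%, SD, n = 4 each, two-sided exact permutation test p = 0.0286, the smallest that 4 against 4 animals can give). With 1 animal left out in turn, the difference in means lay between -14.6 and -11.4 percentage points. The share of SHANK1, in large part its complement, was 48.1 ± 4.62% in control and 58.9 ± 1.34% in sGC animals.

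In F3 females, SHANK3 made up 32.3 ± 4.00% of the SHANK reads in control and 25.0 ± 3.44% in sGC animals (SD, n = 4 each, exact permutation p = 0.0571), and SHANK2 made up 21.0 ± 0.692% and 23.7 ± 0.918% (exact permutation p = 0.0286). In F2 females, the SHANK3 share was 19.4 ± 0.525% in control and 19.5 ± 1.36% in sGC animals, and in F1 males it was 19.0 ± 0.657% and 19.5 ± 0.678%. The SHANK3 shares of F2 females and F1 males thus lay between 18.2% and 21.2% in all 19 animals. Over the 28 shares tested, SHANK and DLG families together, 3 had an exact p under 0.05 and 0 an adjusted one, the smallest adjusted p being 0.267. No DLG share had groups that separated: DLG4 took the largest share in every group, 43.5% to 51.7% on average, and DLG1 the smallest, 6.28% to 8.50%.

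**Figure D4:**
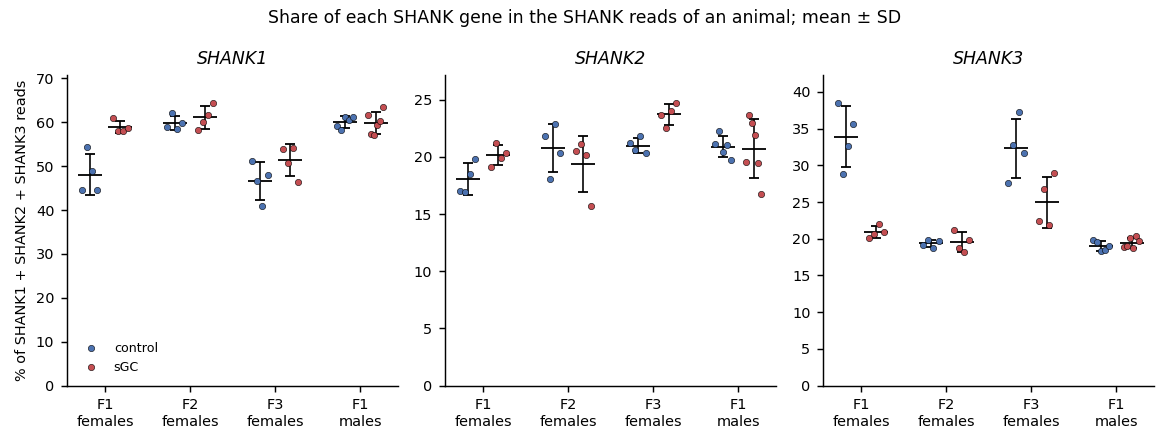
Share of SHANK1, SHANK2 and SHANK3 (vertical axes, percent of the reads of all 3 genes, from 0) in every animal of the 8 groups (horizontal axes), control in blue and sGC in red, with the mean and SD as black lines. The SHANK3 share of the F1 female controls, 28.8% to 38.5%, lies above that of all other animals except F3 females.

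Other genes of the excitatory postsynapse were taken from fixed lists. Of 19 further scaffold and adaptor genes tested in F1 females, 4 were called higher and 2 lower, beside 9.21% and 7.33% of all genes. CASK, a MAGUK that pairs with LIN7 proteins, was up-regulated, at 0.22 on the log2 scale (SE 0.06, FDR = 0.0389) as was LIN7A, at 0.45 (SE 0.12, FDR = 0.0417). LIN7C, a close relative of LIN7A, fell by 0.40 (SE 0.05, FDR = 0.00427), from 82.5 ± 3.17 to 59.1 ± 2.52 CPM (SD, n = 4), with all sGC animals below all controls. Of 14 enzymes and signalling genes, 1 was called, IQSEC1, an Arf exchange factor, with 0.40 (SE 0.08, FDR = 0.0131). Of 15 membrane partners, 4 were called higher and 0 lower, among them LRFN1 (0.43, FDR = 0.00585) and LRFN2 (0.61, FDR = 0.0359), adhesion proteins that bind DLG4, and GRIN1 (0.37, FDR = 0.0427), the obligatory NMDA receptor subunit.

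In F2 females, 0 of 18 further scaffolds, 0 of 15 enzymes and 0 of 16 membrane partners were called, beside 0.278% of all genes. In F3 females, 18, 15 and 16 genes of these lists were tested, and the only call was IQSEC1, beside 1.34% of all genes. IQSEC1 was at 0.32 (SE 0.06, FDR = 0.0367), from 147 ± 4.42 to 176 ± 11.5 CPM (SD, n = 4). In F1 males, 1 further scaffold was called higher and 3 lower of 18. The counts were 0 and 3 of 15 enzymes, and 0 and 3 of 16 membrane partners. Of all 11524 genes tested, 9.22% were called in either direction, and 661 of these 1062 calls were higher. The lower genes included CASK (-0.15, SE 0.04, FDR = 0.0181), CNKSR2, a RAS pathway scaffold (-0.23, SE 0.05, FDR = 0.0147), SIPA1L1, a DLG4-bound Rap regulator (-0.15, FDR = 0.0391), IQSEC2 (-0.25, FDR = 0.0178) and the HOMER1 partner GRM5 (-0.48, FDR = 0.0302). CAMK2A, the abundant postsynaptic kinase, had a log2 fold change of -0.34 in F1 males that did not pass (FDR = 0.0798).

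The response of CASK differed between F1 males and F1 females by -0.38 (SE 0.06, FDR = 0.000349), and that of LIN7C by 0.48 (SE 0.06, FDR = 6.42e-05). Of the further scaffolds, 4 differed upward and 6 downward of 18 in this comparison, in which 16% and 15.6% of all genes did. The counts were 0 and 4 of 14 enzymes and 0 and 5 of 15 membrane partners. Between F2 and F1 females they were 2 and 3 of 18, 0 and 3 of 14, and 0 and 1 of 15, beside 13.8% of all genes, with LRFN1 at -0.60 (SE 0.10, FDR = 0.00307). Between F3 females and either other female generation, no gene of the 3 lists was called. Of all genes, 0.0981% were called against F1 females and 0.018% against F2 females.

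Levels of the 8 members were set side by side over the 8 groups, without a test, because the tables were counted separately and hold different sets of genes. Male libraries were also deeper and of another sample series than female ones. DLG1 varied least, from 100.2 CPM in F2 sGC females to 112 CPM in F3 control females, a ratio of 1.12, and all 7 steps between neighbouring groups overlapped. SHANK1 varied most, from 256 CPM in F3 control females to 513 CPM in F1 control males, a ratio of 2.002, again with overlap at all 7 steps. Steps compare only neighbouring groups, and groups further apart can separate. For SHANK1, all F3 females, at 225 to 296 CPM, lay below all F2 females and F1 males, at 420 to 605 CPM. DLG4 was lowest in F3 females, at 549.7 CPM in sGC and 583 CPM in control animals, and the next group, F1 sGC males at 732 CPM, had no overlap with them. SHANK3 ran from 134 CPM in F3 sGC females to 254 CPM in F1 control females, a ratio of 1.89, and only the last step, from F3 control females at 179 CPM, was free of overlap. SHANK2 and HOMER1 were lowest in F3 control females (116 and 115 CPM) and highest in F1 control males (178 CPM each), with SHANK2 separating at the step between F3 control and F3 sGC females. DLG2 and DLG3 were also highest in F1 control males, at 509 and 243 CPM, with overlap at every step.

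Members also varied together between animals of the same group. For each of the 28 pairs, log2(CPM + 1) values from which the mean of the own group had been subtracted were correlated over 35 animals, with 100000 permutations within groups. Pearson's r was positive for 19 pairs, with a median of 0.31, and 11 pairs had an adjusted permutation p under 0.05, 10 of them positive. The share over pairs of other genes was not computed, so these counts do not set the members apart from other genes. By Spearman's rho, 10 pairs passed. When the 2 animals farthest from the median of the first gene were left out, 7 pairs passed. Library depth and composition are shared by all genes of an animal and enter every pair.

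DLG4 rose and fell with SHANK3 (r = 0.70, rho = 0.59, adjusted permutation p = 0.00189 and 0.00571) and with SHANK1 (r = 0.70, rho = 0.60, adjusted permutation p = 0.000467 and 0.00280). Without the 2 farthest animals, r was 0.58 and 0.59, and both pairs passed (adjusted permutation p = 0.0248 and 0.00793). DLG2 varied with SHANK3 (r = 0.66, rho = 0.65, adjusted permutation p = 0.000140 and 0.00140; r = 0.57 without 2 animals, adjusted permutation p = 0.00793). DLG1, SHANK2 and HOMER1 also varied together, with r = 0.64 for DLG1 and SHANK2, 0.56 for DLG1 and HOMER1, and 0.59 for SHANK2 and HOMER1, and rho = 0.70, 0.60 and 0.64. Their adjusted permutation p values were 0.000140, 0.0115 and 0.00336 for r and 0.000840, 0.00611 and 0.00233 for rho. All 3 pairs passed without 2 animals (r = 0.63, 0.54 and 0.50, adjusted permutation p = 0.00140, 0.0213 and 0.0248). SHANK2 was also related to SHANK3 (r = 0.53, rho = 0.45, adjusted permutation p = 0.0163 and 0.0347), a pair that did not pass without 2 animals (r = 0.38, adjusted permutation p = 0.173), and to DLG2 by rho (0.45, adjusted permutation p = 0.0347) though not by r (0.41, adjusted permutation p = 0.0852).

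DLG3 and SHANK1 varied inversely, with r = -0.59 and rho = -0.55 (adjusted permutation p = 0.00920 and 0.0107). This relation rested in part on 2 animals, F2 sGC female 4 and F3 control female 3, without which r was -0.46 (adjusted permutation p = 0.0912). In F2 sGC female 4, DLG3 was at 164 CPM, the lowest of all 35 animals, and SHANK1 at 593 CPM.

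**Figure D5:**
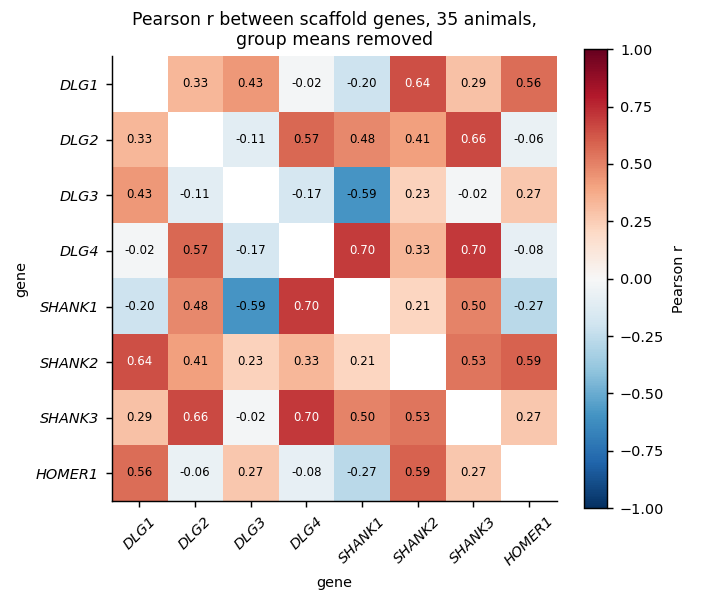
Pearson's r between each pair of scaffold genes (rows and columns) over 35 animals after removal of group means, from blue (-1) to red (1). DLG4 with SHANK1 and SHANK3, DLG2 with SHANK3 and DLG1 with SHANK2 have the highest values, 0.64 to 0.70, and DLG3 with SHANK1 the lowest, -0.59.

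The genes whose group-centred levels were most like a member were sought among 10717 genes outside the list, over 35 animals, as a description. No values are given without the farthest animals, such as F1 female control 1, with SHANK3 at 354 CPM. SHANK3 was closest to DLGAP3 (r = 0.88, rho = 0.83), which encodes the DLGAP protein between the MAGUK and SHANK layers, and to FBXL16 (r = 0.88). SHANK1 was closest to PPP1R9B (r = 0.87), which encodes spinophilin, and to JPH3 (r = 0.86). CACNA1E, a calcium channel subunit, was among those most like DLG3 (r = 0.84). HOMER1 was closest to the activity-induced transcription factor EGR3 (r = 0.87) and to PLCL2 (r = 0.85). For DLG1 they were NR1D2 (r = 0.86), a clock component, and GPR63 (r = 0.84), for DLG2 ST8SIA4 (r = 0.90) and VTI1A (r = 0.86), for DLG4 PDZD4 (r = 0.84) and NCS1 (r = 0.83), and for SHANK2 RANBP2 (r = 0.86) and RASAL2 (r = 0.85).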

How the data were processed

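RNA-seq libraries (TruSeq V2, mRNA) were made from mPFC punches of 35 guinea pigs, 1 library per animal. The authors deposited raw read counts, whole numbers listed by gene symbol, in 4 tables, 1 for each generation and sex. The submitters' processing notes name TopHat2 and edgeR. The counter, strand setting and genome build are not given in the sources used here, so reads shared with overlapping or antisense genes could not be separated. Further columns deposited by the authors (log2 fold change, log2 CPM, likelihood ratio score, p-value and FDR) were not used. No animals had identical libraries.

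Groups were taken from the labels. The members, gene lists and marker lists were chosen with earlier results of these data known. Each table was fitted over all its genes with edgeR 4.0.16 (R 4.3.3): filterByExpr (minimum count 10, minimum total 15), TMM factors, the quasi-likelihood test and Benjamini-Hochberg adjustment, with calls at an FDR under 0.05. Responses were compared between tables as a difference of contrasts in a single fit of both over shared genes. The tables were counted separately, so that a difference in counting would enter any level set across them, while the sGC and control animals of a table share it. CPM values use plain library totals. All members were described in each comparison. From each other list, at most 4 genes called in the most comparisons were named, ties going to the smallest p. For each member, the 2 genes with the highest Pearson's r were named. Some items that these rules select are not reported here. Family shares were tested with two-sided exact permutation tests in scipy 1.17.1 and adjusted over 28 tests. Correlations used a pseudocount of 1. Alternatives were the likelihood ratio test, DESeq2 1.42.0, RLE and upper-quartile factors, no filter, a replicate block, 1 joint fit of the 8 groups and each animal left out. Library totals without scaling factors, the family shares and the fits without F1 female controls 1 and 4 were added after the values had been seen. The scripts were tested on simulated data. Every p-value rests on the variation between animals of these groups, which the quasi-likelihood test moderates over all genes. Separate litters are stated for females only. Whether F2 or F3 animals shared sires is not given in the sources used here.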

Additional observations from a re-analysis of the deposited data

Results flagged for a closer look

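In groups of 4 to 6 animals, 8 of the 64 sets of values (8 genes in 8 groups) held an animal far from the rest by Dixon's test at its 95% critical value, which chance alone gives in about 1 of 20 groups. The genes are not independent, and 3 of the 8 came from male sGC animal 6: DLG2 at 554 CPM (nearest animal 451 CPM), DLG4 at 846 CPM (nearest 725 CPM) and DLG3 at 201 CPM (nearest 218 CPM). SHANK3 accounted for another 3, at 354 CPM in F1 female control 1 (nearest 229 CPM), 185 CPM in F1 female sGC animal 3 (nearest 150.3 CPM) and 165 CPM in F2 female control 2 (nearest 148 CPM). DLG1 was at 123 CPM in F1 female sGC animal 3 (nearest 100.2 CPM), and HOMER1 was at 156 CPM in male control 3 (nearest 179 CPM). Male sGC animal 6 also had the highest sums of astrocyte markers (8542 CPM) and of endothelial and pericyte markers (736 CPM) among the sGC males. The cause of these values was not tested.

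The response to sGC differed by a test of the difference itself (edgeR) in 5 cases. Between F1 males and F1 females, the log2 differences were -0.38 for DLG3, -0.51 for SHANK1, -0.40 for SHANK2 and 0.54 for SHANK3. Between F2 and F1 females, the log2 difference was -0.44 for DLG3.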

How the results depend on the processing

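Of 512 values of members under the other settings, 465 kept their direction and their side of the FDR threshold, as did 732 of 816 with 1 animal left out. For members that passed in the reported fit, 54 of 67 and 79 of 116 passed again and none turned its direction. In F1 females, 3 members were called, against 1 with upper-quartile scaling or library totals alone, and 0 to 4 without 1 animal. In F3 females, DESeq2 called 1. In F1 males, 1 was called by the likelihood ratio test, DESeq2 and upper-quartile scaling, and 0 to 2 without 1 animal. Between F2 and F1 females, 2 were called by the likelihood ratio test, DESeq2, upper-quartile scaling and without F1 controls 1 and 4, and 0 to 3 without 1 animal. Between F1 males and F1 females, 3 to 4 were called without 1 animal. The correlated pairs numbered 11, and 7 without the 2 farthest animals. Why these calls moved was not tested.

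The replicate numbers showed no clear pairing: same-numbered animals of a table correlated between -0.33 and 0.34 and matched best in 2 of 17 pairs. With only 4 or 5 pairs in a table, a weak pairing could go unseen in this check. With the replicate block, 0 members were called in F1 females, 2 in F1 males (DLG2 and DLG4) and 0 between F2 and F1 females. Male sGC animal 6 has no control of the same number, so the block gives it a term of its own. The block fits with F1 males thus take their log2 fold changes from the other males, as when that animal is left out. Under the block HOMER1 had log2 values of 0.010 in F1 females, 0.023 in F1 males, 0.0056 between F1 males and F1 females and -0.011 between F2 and F1 females.

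Other directions turned only for members that did not pass. In F1 females DLG2 was at -0.0020 and DLG4 at -0.029 with library totals alone, and HOMER1 at 0.011 with DESeq2 and RLE factors, 0.0011 in the single fit and 0.21 without controls 1 and 4. HOMER1 was at 0.016 with upper-quartile scaling and 0.067 with library totals between F1 males and F1 females, and at -0.19 without controls 1 and 4 between F2 and F1 females. SHANK3 was at -0.00029 between F3 and F1 females without those controls. Between F3 and F2 females, DLG2 and DLG4 were at -0.011 and -0.013 with upper-quartile scaling, and at -0.035 and -0.036 with library totals. With 1 animal left out, the log2 ranges that crossed 0 were -0.0087 to 0.16 for DLG4 and -0.077 to 0.18 for HOMER1 in F1 females. In F2 females they were -0.043 to 0.12 for SHANK1, -0.051 to 0.085 for SHANK3 and -0.19 to 0.14 for HOMER1, and in F3 females -0.11 to 0.036 for DLG1, -0.094 to 0.0051 for DLG2 and -0.060 to 0.010 for DLG4. HOMER1 crossed 0 in F1 males (-0.078 to 0.031), between F1 males and F1 females (-0.19 to 0.057) and between F2 and F1 females (-0.19 to 0.12). So did SHANK2 between F3 and F1 females (-0.16 to 0.012), and DLG2 (-0.024 to 0.074) and DLG4 (-0.032 to 0.061) between F3 and F2 females.

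Counts over all genes that moved by over 1.5 times were, in F1 females (1864 called), 1080 with the block, 3327 in the single fit and 613 to 2115 without 1 animal. In F2 females (31) they were 534 with the likelihood ratio test, 473 with DESeq2, 70 with upper-quartile scaling, 76 with no filter, 53 with the block, 10 in the single fit, 96 with library totals and 0 to 487 without 1 animal. In F3 females (153) they were 616, 632, 67 with the block, 396 in the single fit and 20 to 598, and calls that were higher went from 122 of 153 to 439 of 632 with DESeq2 and 86 of 125 with library totals. In F1 males (1062) they were 667 to 1613 without 1 animal. Between F2 and F1 females (1536) they were 808 to 1906. Between F3 and F1 females (11) they were 114, 196, 18 with upper-quartile scaling, 0 with the block, 369 without controls 1 and 4 and 1 to 97. Between F3 and F2 females (2) they were 93, 126, 4 with RLE or upper-quartile factors, 9 with the block and 0 to 44. Each member had at least 1152 reads in every animal. The exact permutation test of 4 against 4 animals cannot give a p below 0.0286.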
